A study of Homo sapiens with 6 samples.

Results

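On human chromosome 16 the antibody to acetylated NEIL1 (AcNEIL1) gave 8785 peaks in 3 libraries of HCT116 cells, taken as every row of the authors' peak tables that lies on this chromosome. Replicates 1, 2 and 3 held 2390, 3354 and 3041 of them, out of 39789, 60075 and 49609 peaks on chromosomes 1 to 22 and X. HCT116 is an established human colorectal carcinoma line, here untreated and in exponential growth. The series has 3 libraries of chromatin immunoprecipitated with a custom rabbit antibody to AcNEIL1 and 3 input libraries of sheared chromatin that saw no antibody. Each ChIP list was called against the input of the same number, at 28814429 to 35222701 ChIP tags and 32877739 to 37772127 input tags. No label tells whether a replicate was its own culture; p-values and SDs then measure only the spread between these samples, which may be technical, and a single cell line stands behind all values.

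NEIL1 is a DNA glycosylase. It cuts oxidised bases out of DNA as the opening step of base excision repair, and the acetyltransferase p300 is known to acetylate it. Chromosome 16 carries genes of the same pathway, among them NTHL1, a glycosylase of oxidised pyrimidines, and MPG, a glycosylase of alkylated purines, as well as CREBBP, a close relative of p300. Its short arm (16p) begins in a very gene-rich stretch with the alpha-globin genes, a large block of heterochromatin follows the centromere, and the end of the long arm (16q) is rich in genes and CpG dinucleotides.

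The DNA under the strongest promoter peaks is given first, because these windows show what kind of start site carried them. Each window runs from 250 bases before to 50 after a gene start of RefSeq on GRCh38.p14, the build of the peaks (hg38), is read 5′ to 3′ on the gene's own strand, and has its CG dinucleotides in capitals. GREP1 encodes a glycine-rich extracellular protein (chr16:2990914-2991213, plus strand), and PERCC1 a protein needed by hormone-producing cells of the gut (chr16:1430828-1431127, plus strand). CTRB2 encodes the precursor of a chymotrypsin (chr16:75207112-75207411, minus strand) and PTX4 a pentraxin (chr16:1488418-1488717, minus strand). HS3ST6 encodes a heparan sulfate sulfotransferase (chr16:1918366-1918665, minus strand) and ZG16B a secreted lectin (chr16:2830053-2830352, plus strand). These 6 windows met a peak in all 3 replicates. In replicate 2 the summits of these peaks lay at about 2989350 for GREP1, 1433640 for PERCC1 and 1920180 for HS3ST6, outside the windows. At CTRB2 the summit of replicate 1, at about 75207300, lay inside.
GREP1: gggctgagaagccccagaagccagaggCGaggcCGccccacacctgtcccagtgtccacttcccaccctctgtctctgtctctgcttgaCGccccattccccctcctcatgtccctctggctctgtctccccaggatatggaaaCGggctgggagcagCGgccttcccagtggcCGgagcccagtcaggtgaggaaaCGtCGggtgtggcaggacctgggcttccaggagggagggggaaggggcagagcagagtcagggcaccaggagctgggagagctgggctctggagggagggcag
PERCC1: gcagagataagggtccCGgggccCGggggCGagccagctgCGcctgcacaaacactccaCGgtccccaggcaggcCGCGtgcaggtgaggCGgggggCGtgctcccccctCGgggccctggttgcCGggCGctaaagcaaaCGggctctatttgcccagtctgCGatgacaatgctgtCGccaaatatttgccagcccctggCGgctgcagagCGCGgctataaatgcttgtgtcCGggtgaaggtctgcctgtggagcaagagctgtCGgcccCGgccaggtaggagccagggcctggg
CTRB2: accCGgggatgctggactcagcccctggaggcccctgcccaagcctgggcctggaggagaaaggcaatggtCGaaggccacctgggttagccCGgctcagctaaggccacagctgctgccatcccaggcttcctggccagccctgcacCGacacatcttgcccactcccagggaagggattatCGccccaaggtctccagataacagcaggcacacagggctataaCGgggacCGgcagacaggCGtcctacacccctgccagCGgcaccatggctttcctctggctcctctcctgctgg
PTX4: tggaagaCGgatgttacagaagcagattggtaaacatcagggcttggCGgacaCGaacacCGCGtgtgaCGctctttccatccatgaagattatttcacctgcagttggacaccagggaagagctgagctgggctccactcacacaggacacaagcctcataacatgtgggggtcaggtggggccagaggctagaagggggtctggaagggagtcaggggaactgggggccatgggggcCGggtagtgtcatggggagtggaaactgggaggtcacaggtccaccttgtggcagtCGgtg
HS3ST6: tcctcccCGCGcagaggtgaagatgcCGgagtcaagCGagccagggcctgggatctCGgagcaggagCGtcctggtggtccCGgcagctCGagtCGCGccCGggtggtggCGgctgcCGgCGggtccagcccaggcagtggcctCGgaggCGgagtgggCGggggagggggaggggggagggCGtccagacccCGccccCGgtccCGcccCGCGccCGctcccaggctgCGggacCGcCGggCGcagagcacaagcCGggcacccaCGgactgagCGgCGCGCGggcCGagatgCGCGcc
ZG16B: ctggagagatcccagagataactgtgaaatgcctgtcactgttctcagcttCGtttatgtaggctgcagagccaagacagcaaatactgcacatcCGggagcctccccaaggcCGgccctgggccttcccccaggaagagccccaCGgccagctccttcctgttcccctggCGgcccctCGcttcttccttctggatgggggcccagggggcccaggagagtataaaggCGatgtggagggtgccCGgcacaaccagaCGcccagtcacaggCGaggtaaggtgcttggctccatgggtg
For contrast, the windows of NTHL1 (chr16:2047785-2048084, minus strand) and MPG (chr16:77975-78274, plus strand) met no peak in any replicate.
NTHL1: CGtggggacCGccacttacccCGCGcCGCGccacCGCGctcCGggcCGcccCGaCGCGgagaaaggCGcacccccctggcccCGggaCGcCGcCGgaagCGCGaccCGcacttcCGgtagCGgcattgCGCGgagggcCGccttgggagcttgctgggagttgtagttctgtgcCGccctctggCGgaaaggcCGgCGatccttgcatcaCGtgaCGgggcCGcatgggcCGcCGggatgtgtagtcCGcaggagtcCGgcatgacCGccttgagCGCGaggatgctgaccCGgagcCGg
MPG: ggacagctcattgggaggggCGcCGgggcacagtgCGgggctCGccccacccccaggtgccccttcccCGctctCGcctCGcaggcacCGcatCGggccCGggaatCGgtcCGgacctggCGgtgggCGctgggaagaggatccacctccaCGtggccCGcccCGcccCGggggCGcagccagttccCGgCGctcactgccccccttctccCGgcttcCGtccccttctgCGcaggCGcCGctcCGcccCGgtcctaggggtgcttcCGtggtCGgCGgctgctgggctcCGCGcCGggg
The 6 windows with peaks held 8 CG dinucleotides in GREP1, 21 in PERCC1, 9 in CTRB2, 8 in PTX4, 37 in HS3ST6 and 10 in ZG16B. The repair genes without peaks held 42 in NTHL1 and 34 in MPG. So all of the 6 but HS3ST6 held fewer than both of these start sites, and HS3ST6 lies between MPG and NTHL1. Start sites without peaks were not all rich: the windows of IRF8, also without a peak, held 3 and 9.

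Chromosome 16 was dense in AcNEIL1 peaks. It carried 28.8, 40.4 and 36.6 peaks per Mb in replicates 1, 2 and 3, against 13.2, 20.1 and 16.5 on the other chromosomes, counted over the 1 Mb bins that hold a gene or a peak. That is a ratio of 2.14 ± 0.110 (SD, n = 3), above 1 in 3 of 3 replicates, with p = 0.25 in an exact two-sided sign-flip permutation test. With 3 replicates 0.25 is the smallest p the test can give, so it cannot pass a threshold in this or any comparison below. Chromosome 16 ranked 4 among 23 chromosomes in each replicate. It held 0.592 ± 0.002 times the density of chromosome 17, 0.607 ± 0.035 times that of chromosome 22 and 0.746 ± 0.047 times that of chromosome 19 (SD, n = 3).

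The surplus was larger than the difference in gene content. Chromosome 16 has 845 protein-coding genes, or 10.2 per Mb against 6.72 on the other chromosomes. Per protein-coding gene it held 2.83, 3.97 and 3.60 peaks, against 1.97, 2.99 and 2.45 elsewhere, a ratio of 1.41 ± 0.073. Chromosome 19, with 23.9 protein-coding genes per Mb, had fewer peaks for each of them, so that the ratio of chromosome 16 to it was 1.75 ± 0.109 (SD, n = 3). Chromosomes 17 and 22 had more, and the ratios of chromosome 16 to them were 0.831 ± 0.002 and 0.671 ± 0.039. By peaks per protein-coding gene chromosome 16 ranked 3, 7 and 3 among the 23 chromosomes in replicates 1, 2 and 3.

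Single peaks were no stronger here. The authors' fold enrichment of a peak is the pileup of tags at its summit over the local background that the caller estimated from the input, with 1 added to each. Its median was 3.32, 3.31 and 3.51 on chromosome 16, against 3.43, 3.41 and 3.61 on the other chromosomes, a ratio of 0.970 ± 0.001 (SD, n = 3). The local background that goes with these folds, in tags, had a median of 5.98, 6.28 and 5.13 on chromosome 16 and 4.92, 5.34 and 4.43 on the others. It was thus higher on chromosome 16 in 3 of 3 replicates, and its part in the number of peaks was not tested.

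**Figure D1:**
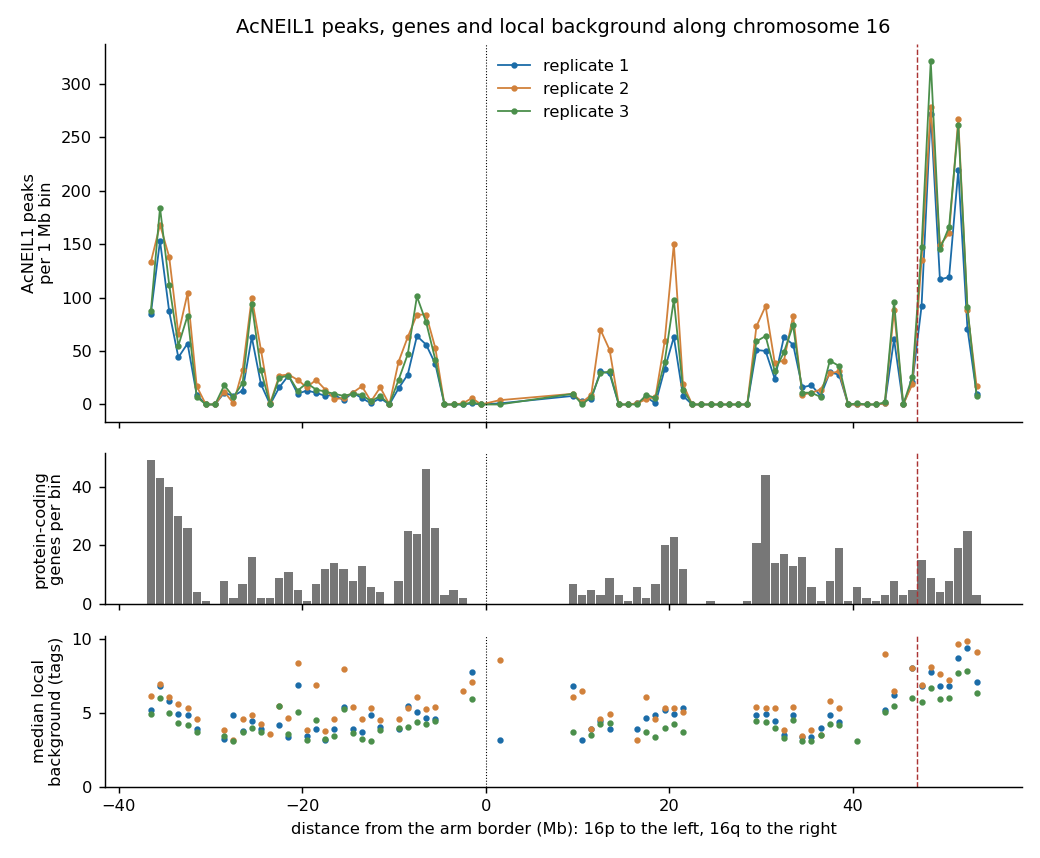
AcNEIL1 peaks per 1 Mb bin of chromosome 16 in each replicate (top), protein-coding genes per bin (middle) and the median local background at peak summits in tags (bottom), against distance in Mb from the border between the arms. The dotted line is the arm border and the dashed line the start of distal 16q, where bins reach 272, 278 and 321 peaks in replicates 1, 2 and 3 and the background is also higher.

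Along the chromosome the peaks sat in a few blocks with long empty stretches between them. The 5 fullest of the 83 bins held 33.9% of all peaks, and 19 bins held none. The plot of peaks, genes and background along the chromosome shows the blocks at both ends of the chromosome, and smaller ones around 11 Mb, 29 to 31 Mb, 57 Mb, 66 to 71 Mb and 81 Mb. The 3 replicates placed them alike: Spearman's rank correlation of the bin counts was 0.973 between replicates 1 and 2, 0.982 between 1 and 3 and 0.972 between 2 and 3, a description over 83 bins of libraries that share a genome and its gene-rich stretches.

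The bin that begins at 85 Mb was the fullest of the chromosome, with 272, 278 and 321 peaks. It ranked 1, 2 and 1 among the 2906 bins of the genome although it holds only 9 protein-coding genes. The bin at 88 Mb held 219, 267 and 261 peaks and ranked 3, 5 and 3. The bin at 1 Mb, with 43 protein-coding genes, held 153, 168 and 184. Of the 100 fullest bins of the genome 7 lie on chromosome 16, and 5 of those lie in distal 16q.

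Empty bins were not all without genes: 11 of the 19 hold 22 protein-coding genes. The longest empty run is 7 Mb, from 59 to 66 Mb, and holds CDH8 and CDH11, cadherins of neurons and of mesenchyme. RBFOX1, a neuronal splicing factor, fills an empty run from 6 to 8 Mb. SALL1 and TOX3 lie in the run from 51 to 53 Mb, and WWOX, MAF and CLEC3A in the run from 78 to 80 Mb. The run from 32 to 34 Mb holds the near-identical copies of TP53TG3, where reads cannot be placed with certainty.

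The count of peaks followed the count of genes on most of the chromosome. Over all 83 bins Spearman's rank correlation between peaks and protein-coding genes was 0.797, 0.788 and 0.814 in replicates 1, 2 and 3. In the 7 bins of distal 16q it was 0.179, 0.179 and 0.286. These are descriptions over neighbouring bins, and 7 bins say little.

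Taken whole, 16p had fewer peaks per Mb than 16q, and this order turned round without the distal end of 16q. With the arms split at 37 Mb, inside a stretch without genes from 36.1 to 46.5 Mb, 16p held 23.6, 36.3 and 31.1 peaks per Mb and 16q held 33.0, 43.7 and 41.1. The ratio was 0.767 ± 0.058 (SD, n = 3; p = 0.25 in the exact sign-flip permutation test). Without distal 16q it turned round to 1.55 ± 0.060, and with peaks of at least 4-fold enrichment alone it was 1.12 ± 0.039. The order of the arms thus depended on distal 16q and on the strength of the peaks counted. Per protein-coding gene 16p was lower, with 1.85, 2.85 and 2.44 peaks against 4.06, 5.38 and 5.06 on 16q.

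Distal 16q, the last 7 bins from 84 Mb on, was the densest stretch. This border was drawn with earlier results of these peaks known, so the contrast is a description of the block. Distal 16q held 900, 1094 and 1139 peaks, which is 37.7, 32.6 and 37.5% of all peaks of the chromosome. It carried 129, 156 and 163 peaks per Mb, against 15.8, 23.5 and 19.3 in the rest of 16q, a ratio of 7.74 ± 0.957 (SD, n = 3; above 1 in 3 of 3 replicates; p = 0.25 in the exact sign-flip permutation test). Protein-coding genes were only 1.59 times as dense there, 11.9 against 7.46 per Mb. Each gene of distal 16q thus came with 10.8, 13.2 and 13.7 peaks, against 2.12, 3.15 and 2.58 in the rest of 16q.

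The local background rose in the same stretch. Its median was 7.77, 8.39 and 6.72 tags in distal 16q, against 4.85, 5.34 and 4.44 in the rest of 16q, a ratio of 1.56 ± 0.045 (SD, n = 3). The higher background did not begin at the 84 Mb border. Averaged over replicates, the bin medians were 6.08 at 81 Mb and 7.37 at 83 Mb, where the bins held 81.7 and 22 peaks. They were 6.48 to 9.03 in the bins from 84 Mb and 3.30 to 4.98 in those from 66 to 76 Mb. No peak of distal 16q sat at the caller's background floor, against 10.7, 1.74 and 11% of peaks in the rest of 16q. Fold enrichment was lower there, with medians of 3.08, 3.10 and 3.31 against 3.42, 3.39 and 3.59. Replicate 2, whose cutoff was passed by the most peaks, showed the same order as the others. Peaks of at least 4-fold enrichment kept distal 16q above the rest of 16q, at a ratio of 5.12 ± 0.169, and this fold is taken over the same local background; the part of the background in either ratio was not tested.

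**Figure D2:**
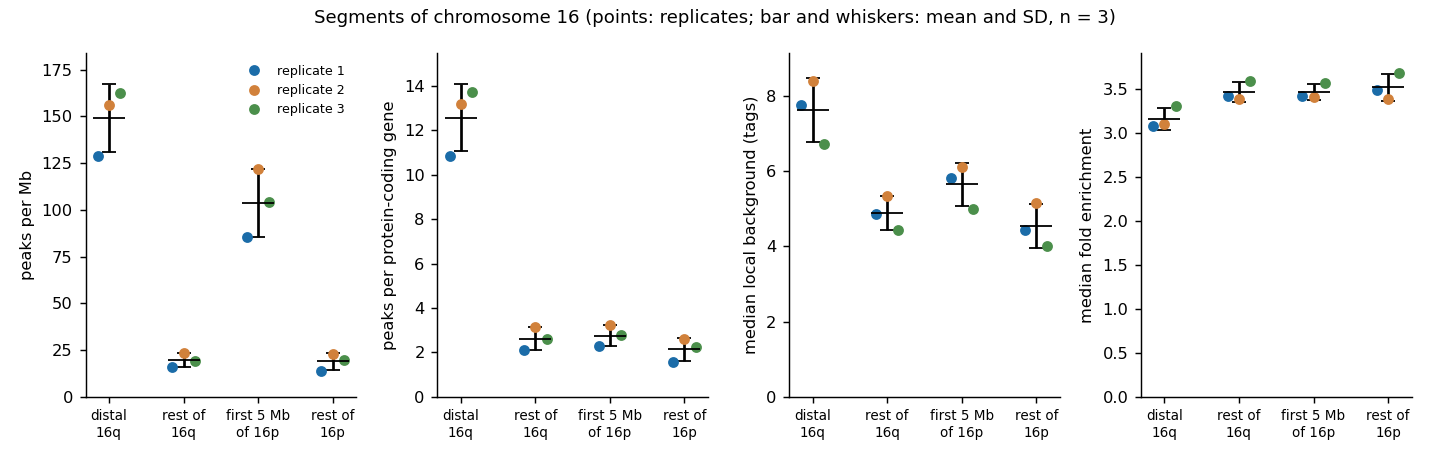
Peaks per Mb, peaks per protein-coding gene, median local background in tags and median fold enrichment in 4 segments of chromosome 16; points are replicates, bars and whiskers the mean and SD of 3 replicates. Distal 16q holds 129 to 163 peaks per Mb against 15.8 to 23.5 in the rest of 16q, with a higher background and a lower fold.

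The first 5 Mb of 16p formed the other dense end, and the place of its peaks relative to genes differed from that in distal 16q. Distal 16q had 1.45 ± 0.148 times its peaks per Mb and 4.60 ± 0.469 times its peaks per protein-coding gene (SD, n = 3). The first 5 Mb of 16p carried 85.2, 122 and 104 peaks per Mb, against 14, 22.9 and 19.7 in the rest of 16p, and 37.6 protein-coding genes per Mb. Of distal 16q peaks 9.33, 8.23 and 9.83% had the summit within 1000 bp of a gene end, against 21.1, 20.2 and 21.7% in the first 5 Mb of 16p. Inside genes and away from their ends lay 60.9, 59.6 and 59.4% of distal 16q peaks, against 42.0, 49.3 and 41.7% in the first 5 Mb of 16p. Peaks of the 16q end thus lay inside genes more often, and those of the 16p end at gene ends more often, in 3 of 3 replicates. Of the distal 16q summits, 214, 184 and 233 lay inside GSE1 and 116, 118 and 114 inside ZNF469. The shares were not computed without these genes. The 16p end also had more protein-coding genes, 37.6 against 11.9 per Mb, and the part of gene density in the shares was not tested.

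GSE1 alone accounted for much of the 85 Mb bin. It encodes a coiled-coil protein known from histone deacetylase complexes and spans 507 kb (chr16:85169512-85676200). Inside it lay 214, 184 and 233 peak summits, more than in any other protein-coding gene of the genome in replicates 1 and 3, and it ranked 3 in replicate 2. That is 7.37% ± 1.75 of the peaks of chromosome 16 (SD, n = 3), and peaks covered 38.8% ± 11.2 of the gene. The ranks are by count of summits and are not scaled to gene length. Per 10 kb GSE1 held 4.15 summits on average, rank 24 among the 6247 genes of at least 50 kb in the genome. Its 2 ends were nearly bare: the single gene-end peak was that of replicate 2, at 3.04-fold.

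ZNF469, a zinc-finger gene linked to a disorder of the cornea, was the next. Its 340 kb (chr16:88100931-88440753) held 116, 118 and 114 summits, ranking 4, 8 and 7 by count among all protein-coding genes. Per 10 kb ZNF469 held 3.41 on average, rank 50 among the 6247 genes of at least 50 kb. Together with GSE1 it moved the segment values: without the peaks inside these genes distal 16q still had 5.28 ± 0.540 times the density of the rest of 16q, and chromosome 16 1.89 ± 0.070 times that of the other chromosomes. KIAA0513, of 66.4 kb, held 27, 29 and 33 summits, the highest number per 10 kb among chromosome 16 genes of at least 50 kb, at 4.47 on average. In the whole genome it ranked 14 by this measure.

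Other genes of distal 16q followed. CBFA2T3, a transcriptional corepressor of blood cells, held 29, 37 and 51 summits, and the widest chromosome 16 region shared by all replicates, of 21103 bp, lay across its end. CRISPLD2, a secreted protein, held 19, 26 and 43, and JPH3, a junction protein of neurons, 22, 29 and 34. ZFPM1, the cofactor of GATA1 also called FOG1, held 18, 34 and 20. Outside distal 16q, CACNA1H, a low-voltage calcium channel near the 16p end, held 19, 20 and 28, and ZNF423, a developmental zinc-finger factor, 26, 60 and 22.

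Not every long gene held peaks. RBFOX1 (2474 kb), CDH13 (1174 kb), the gene of T-cadherin, and WWOX (1113 kb), an oxidoreductase gene at a fragile site, held 0 summits in every replicate. Of the 189 genes of chromosome 16 of at least 50 kb, 76 (40.2%) held none, against 3577 of 6247 (57.3%) in the whole genome. The plot of peaks inside long genes sets these beside GSE1 and ZNF469.

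**Figure D3:**
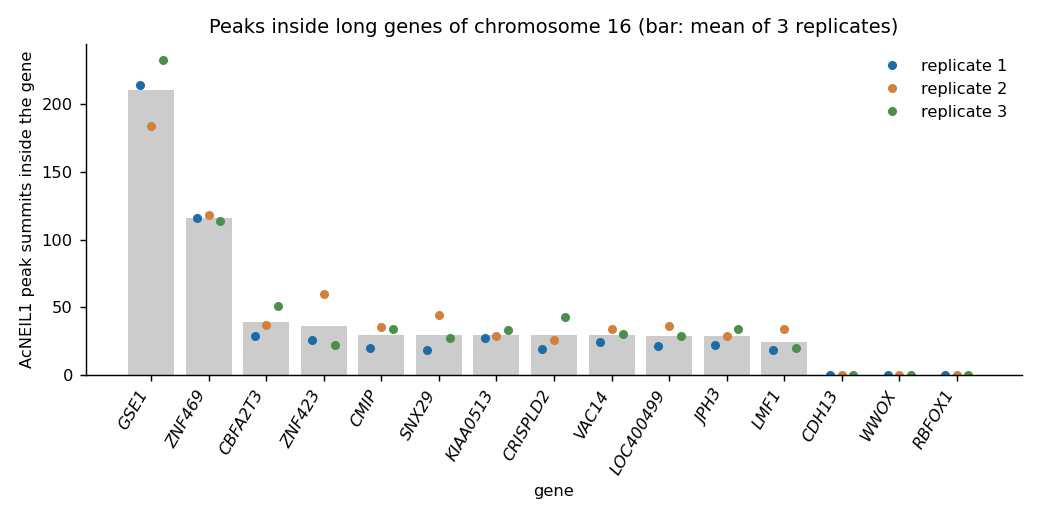
Number of AcNEIL1 peak summits inside long protein-coding genes of chromosome 16; points are replicates and grey bars their mean. GSE1 holds 184 to 233 summits and ZNF469 114 to 118, while CDH13, WWOX and RBFOX1 hold 0 in each replicate.

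Peaks of the 3 replicates merged into 4684 regions on chromosome 16, and 714 of them (15.2%) held a peak of all 3, where the share over chromosomes 1 to 22 and X is 13.2%. Another 875 regions were found in 2 replicates and 3095 in 1. Without replicate 1, the shortest list, 1242 regions were shared by the remaining 2. Distal 16q supplied 307 of the 714 (43.0%), and 23.1% of its regions were shared, against 11% in the rest of 16q. In the first 5 Mb of 16p 18.4% were shared, against 9.60% in the rest of 16p. Both dense ends had the larger shared fraction, and the median width of a shared region was 2147 bp in distal 16q against 1590 bp in the rest of 16q. Peaks covered 88.5, 167 and 114 kb per Mb in distal 16q, against 7.57, 15.9 and 9.30 in the rest of 16q. In the first 5 Mb of 16p they covered 54.6, 119 and 64.4, against 7.09, 14.2 and 9.16 in the rest of 16p. An overlap of 1 bp was enough to share a region, and the part of coverage in the shared fractions was not tested.

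Most shared regions lay away from protein-coding gene ends. Of the 714, 129 (18.1%) came within 1000 bp of the end of a protein-coding gene and 207 (29.0%) of any gene. A further 356 (49.9%) lay in a gene away from its ends and 151 (21.1%) in no gene. These shares were not computed for shared regions of other chromosomes, so they show no trait of chromosome 16. Of single summits, 12.7, 12.1 and 12.8% on chromosome 16 lay within 1000 bp of a gene end, against 12.6, 12.1 and 12.3% elsewhere. The median width of the shared regions was 1839.5 bp, against 1700 bp on the other chromosomes. The mean fold of their strongest peaks ran between 1.97 and 7.14 with a median of 3.79, and 52 reached 5.

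The strongest shared regions were taken by the mean rank of fold over replicates. GREP1 came first (chr16:2985546-3001786), with strongest peaks of 6.05, 6.90 and 6.63-fold in replicates 1, 2 and 3, or 6.53 ± 0.436, over the start site printed above. The region across APOBR, which takes up lipoproteins, and IL27, whose product forms a cytokine of myeloid cells (chr16:28493834-28499859), reached 6.13, 6.28 and 9.0, the highest mean at 7.14 ± 1.61. The third, at MARF1, a regulator of meiotic RNA (chr16:15591313-15594441), had 7.44, 5.83 and 6.99. The fourth lay over the long non-coding RNA gene LOC124903676 (chr16:29256826-29264842), with 7.17, 6.0 and 6.21, and 116325 bp from the nearest protein-coding gene. These 4 regions were above 5-fold in all 3 libraries. The strongest peak of each replicate can lie anywhere in a region, so the folds need not belong to the same site. In the fourth region the summits lay at about 29264200, 29259300 and 29258800 in replicates 1, 2 and 3. In the second they lay closer, at about 28496100, 28496000 and 28495800.

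HS3ST6 gave the fifth (chr16:1913306-1920910), with 4.96, 7.44 and 6.24-fold, and a region 525 bp from RAB26, a GTPase of secretory granules, the sixth (chr16:2143190-2147619), with 6.06, 5.48 and 7.67. The seventh to the tenth all lie in distal 16q. The seventh lies at ends of VPS9D1 and of its antisense RNA, which peaks cannot tell apart (chr16:89706293-89711807; 5.63, 6.27 and 5.52-fold). The eighth sits inside GSE1, over the long non-coding RNA genes LOC101928502 and LOC107984830 and within 1000 bp of MIR5093 (chr16:85306569-85315663; 4.80, 6.62 and 6.16). The ninth lies inside ZNF469 (chr16:88229375-88235941; 4.71, 6.39 and 6.87), and the tenth over LINC00304 and LINC02138, long non-coding RNA genes 3336 bp from ACSF3 (chr16:89159569-89167497; 4.98, 6.77 and 5.51). Replicate 1 was the lowest of the 3 libraries in the last 3 of these.

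At gene ends, 194 of the 845 protein-coding genes of chromosome 16 (22.96%) had a peak within 1000 bp of either end in at least 2 replicates, where the share over all protein-coding genes is 15.2%. All 3 replicates had such a peak at 119 (14.1%), where the background share is 9.03%, and 525 (62.1%) had none in any. Chromosomes 17, 19 and 22 reached 28.3, 25.7 and 30.8% by the first count, so chromosome 16 stood below each of them. Distal 16q had 35 of 83 genes (42.2%), against 53 of 291 (18.2%) in the rest of 16q. The first 5 Mb of 16p had 61 of 188 (32.4%), against 45 of 283 (15.9%) in the rest of 16p. The table of genes gives no strand, so a gene end may be the start or the end of transcription.

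The 20 protein-coding genes with the strongest gene-end peaks in all 3 replicates were taken by mean rank of fold. CDH15, the cadherin of muscle, had 4.63, 6.68 and 5.25-fold, and its neighbour SLC22A31, of the organic ion transporter family, shared the first 2 of these peaks and had 4.86 in replicate 3. RHBDF1, an inactive rhomboid that guides growth factor release, had 4.56, 5.82 and 4.67. The peaks of ARHGDIG, a regulator of small GTPases, and of PDIA2, a protein disulfide isomerase of the pancreas, were the same, with 4.71, 5.26 and 4.43. Of these 5 genes ARHGDIG and PDIA2 varied least, with an SD of 0.419 over the 3 replicates.

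Others rested more on 1 library. CCDC154 had 4.11, 8.58 and 5.79-fold and PERCC1 beside it 4.11, 8.58 and 5.06, both highest in replicate 2. CTRB2 had 4.10, 7.96 and 4.97. BMERB1 and its readthrough gene MPV17L-BMERB1 share 1 end and had 6.0, 3.85 and 8.62, highest in replicate 3. PABPN1L, a poly(A)-binding protein of the egg, had 3.32, 6.39 and 5.46. GREP1, at its gene ends, had 3.90, 6.90 and 6.63, lowest in replicate 1, where the strongest peak of its region lay away from both ends. Of the rest, VPS9D1, APOBR and IL27 are described with the regions, and PTX4, PRR35, PRSS33 and BANP had means of 5.38 ± 1.08, 5.35 ± 0.766, 4.87 ± 0.825 and 4.77 ± 0.770 (SD, n = 3).

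**Figure D4:**
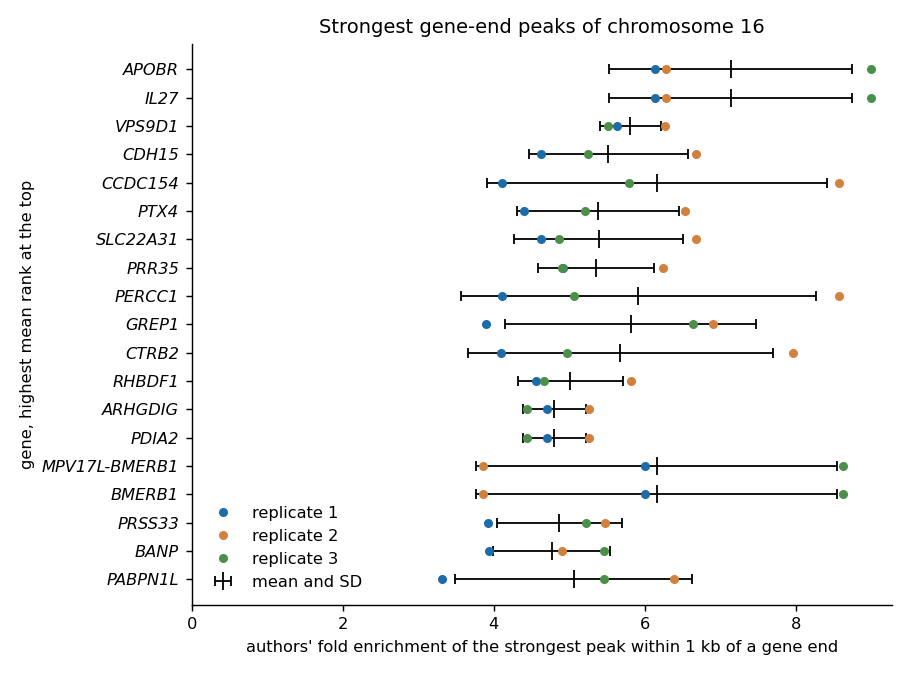
Fold enrichment, as the authors give it, of the strongest peak within 1000 bp of a gene end for 19 of the 20 protein-coding genes of chromosome 16 with the highest mean rank; coloured points are replicates, the bar and whiskers the mean and SD. APOBR and IL27 share the peak of highest mean, 7.14, and the libraries differ most at CCDC154, PERCC1, BMERB1 and CTRB2.

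Of 18 DNA repair genes 0 had a gene-end peak in at least 2 replicates, a count that allows a share of up to 16.7%. NTHL1 had 1 such peak, of 3.14-fold in replicate 2, and MPG 1, of 4.67-fold in replicate 3. SLX4 and SLX1B, of a structure-specific nuclease complex, also had a peak in 1 replicate each, and SLX1B has a near-identical copy, so that its value is uncertain. The other 14 had none, beside 525 of the 845 protein-coding genes of the chromosome. The ends of ERCC4, the nuclease of excision repair, and of PALB2 and FANCA, of cross-link and double-strand break repair, had none. With windows of 5000 bp in place of 1000, 8 of the 18 had a peak in at least 2 replicates, beside 421 of the 845 protein-coding genes of chromosome 16. The limit of 16.7% lies above the 15.2% of all protein-coding genes, so a smaller share than theirs could not be shown.

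Genes of acetylation and chromatin had 2 of 12. For this list and those below, the share was 15.2% over all protein-coding genes and 22.96% over those of chromosome 16. These were ZFPM1, with 3.17, 3.68 and 3.35-fold, and BANP, a DNA-binding protein of CpG-rich promoters, with 3.93, 4.91 and 5.45. CREBBP and CTCF had no gene-end peak in any replicate and no summit inside. KAT8, an acetyltransferase of histone H4, had a gene-end peak of 3.63-fold in replicate 2 alone but 4, 6 and 3 summits inside.

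Developmental transcription factors had 6 of 14, and 5 in all 3 replicates. The neighbours FOXF1, FOXC2 and FOXL1, forkhead factors of mesoderm, lie in distal 16q, where 42.2% of protein-coding genes had such a peak. FOXF1 had 3.66, 4.67 and 3.96-fold, FOXC2 5.52, 4.24 and 4.03, and FOXL1 3.99, 5.28 and 3.58. IRX3, a homeobox factor, had 5.33, 3.73 and 4.00, and SOX8 3.05, 4.70 and 3.76. The sixth, TBX6, a T-box factor of mesoderm, had a peak in replicates 1 and 3.

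Leukocyte genes had 10 of 29, and 7 in all 3 replicates. Beside IL27 these included IL32, a cytokine, with 5.35, 4.55 and 3.73-fold, and LAT, an adaptor of the T cell receptor, with 4.16, 4.03 and 4.05. The chemokines CX3CL1 and CCL17 and the sorting nexin SNX20 were also among them. IRF8, a transcription factor of myeloid cells, had no gene-end peak.

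Proteases of the tryptase group, serine proteases of mast cells and epithelia, had 7 of 12. PRSS33 lies in the first 5 Mb of 16p, where 32.4% of protein-coding genes had such a peak. PRSS33 had 3.93, 5.47 and 5.22-fold, TPSB2 3.61, 4.92 and 4.54, TPSAB1 3.66, 4.97 and 3.96, and TPSD1 3.55, 4.37 and 4.04. The tryptase genes are near-identical copies, so which of them carried the reads is uncertain. Signalling genes had 10 of 21, with SSTR5, a somatostatin receptor, at 3.31, 6.32 and 4.88 and ADCY9, an adenylyl cyclase, at 3.30, 2.98 and 4.90. Without replicate 3 their count was 6.

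Ion channels and transporters had 11 of 32, and 6 in all 3 replicates; CLCN7, a lysosomal chloride transporter, had 3.70, 4.31 and 5.79-fold, NHERF2, a scaffold of transporters, 3.20, 3.78 and 4.91, and SLC38A8, an amino acid transporter, 3.40, 4.32 and 3.51. Without replicate 2 or without replicate 3 the count of 11 fell to 7. Muscle genes had 3 of 10, with MYL11, a myosin light chain, at 4.03, 3.54 and 4.77 and CACNA1H at 3.01, 4.92 and 3.28. The third, CORO1A, is also counted among the leukocyte genes, and CACNA1H among the ion channels. The count of muscle genes fell to 0 with windows of 500 bp and to 1 with −log10 q of at least 5. Cadherins had 3 of 8. These were CDH15, CDH16 of the kidney, with 2.93, 4.89 and 3.46, and CDH5 of the endothelium, with 3.05, 4.67 and 3.41. CDH1 and CDH3, the E- and P-cadherins that epithelial cells make, had no gene-end peak, and CDH3 had 4, 6 and 8 summits inside.

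Metallothioneins, small metal-binding proteins, had 3 of 11 and 0 in all 3 replicates. Leaving out any replicate left 1 of the 3. Globin genes had 0 of 5, which allows a share of up to 60%. Tumour suppressor and epithelial genes had 2 of 13. CBFA2T3 had 3.97, 6.39 and 3.57-fold and MSLN, a surface protein of mesothelium, 3.33, 2.84 and 4.14, while AXIN1, a scaffold of Wnt signalling, had no gene-end peak. Beside the 15.2% of all protein-coding genes and the 22.96% of chromosome 16, these counts are descriptions of short lists, and no list was tested against other genes.

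In the promoter windows themselves peaks were rare. Of the 822 protein-coding windows of chromosome 16, which belong to 611 genes, 37 (4.50%) met a peak in at least 2 replicates, where the share over all protein-coding windows is 3.96%. In all 3 replicates 21 (2.55%) did, where the background share is 1.72%. Without replicate 2 the first count was 23 and without replicate 3 it was 24. The first share is near that of the genome, unlike the share of gene ends within 1000 bp.

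Windows with peaks were poorer in CpG, as in all but HS3ST6 of the 6 printed above. This is a description with no test, of windows that a peak overlaps, and the summit may lie outside them. The 21 with a peak in all 3 replicates held a median of 9 CG dinucleotides, against 27 in the 732 windows without any peak, and their GC content was 62.0% against 66.7%. The lower CpG count also held over all protein-coding windows of the table, with a median of 11 in those with a peak in all 3 and 22 in those without. The GC content went the other way there, at 64.3% in those with a peak in all 3 and 62.3% in those without. The GC box, searched as GGGCGG or CCGCCC, was in 47.6% of the 21 and in 67.9% of those without a peak, where 56.3% of all protein-coding windows hold it. The letters TATAAA or TTTATA were in 9.52% of the 21 against 5.19%, and in 9.46% of all protein-coding windows of the table. This difference did not hold more widely. In chromosome 16 windows with a peak in at least 2 replicates the share was 5.41%. Over all protein-coding windows it was 8.40% with a peak in all 3 and 9.59% with none. The GC box holds a CG dinucleotide, so its share and the CpG count are not separate measures, and a match is no evidence of binding.

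**Figure D5:**
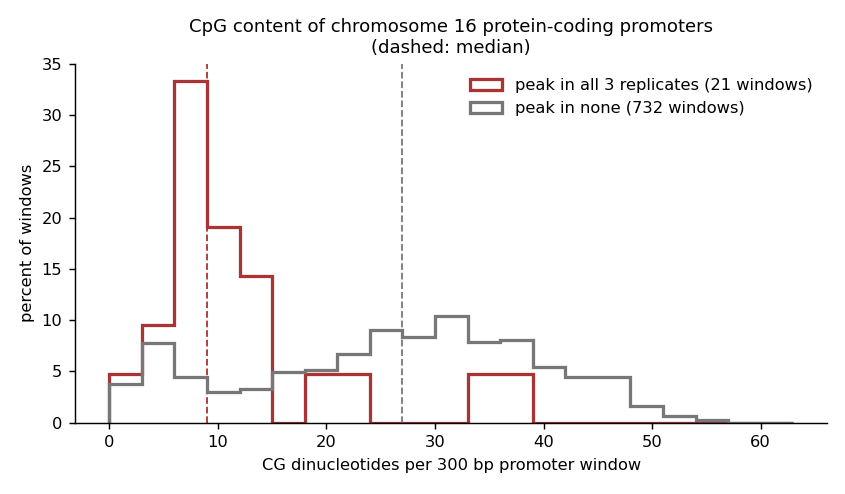
Share of protein-coding promoter windows of chromosome 16, in percent, by their number of CG dinucleotides, for the 21 windows with a peak in all 3 replicates and the 732 windows with none. The dashed lines are the medians, 9 for windows with a peak and 27 for windows without.

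MicroRNA genes add a last view. Of 71 hairpins on chromosome 16, 2 (2.82%) met a peak in all 3 replicates, where the share over all hairpins is 1.93%. MIR12128 lies inside GSE1 (chr16:85207796-85207895, plus strand), and its peaks had 3.23, 3.97 and 3.42-fold, or 3.54 ± 0.385 (SD, n = 3). MIR6511A3 is a member of a near-identical family, and its value of 3.15 ± 0.579 is uncertain. The mature sequence of the microRNA inside GSE1 is shown with its seed, bases 2 to 8, in capitals, because it is the only hairpin of the chromosome with a peak in all 3 replicates and a sequence outside such a family.
hsa-miR-12128: uUCAGGGAuggcgcaugaagaggaga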

How the data were processed

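The authors deposited 1 peak table for each of the 3 AcNEIL1 ChIP libraries; inputs served only as controls, each for the ChIP library of its number. Peaks were called with MACS 2.1.1.20160309 for each replicate without pooling at a q-value cutoff of 0.05, keeping at most 2 tags per position, as the headers of the deposited tables state. The submitters' processing notes also list Bowtie2, SAMtools, bedtools, cutadapt, Trim Galore and FastQC, with no version given in the sources used here. Tags were extended to 268, 294 and 249 bp (replicates 1, 2 and 3), and the deposited signal is their pileup at the summit. The p and q of the caller were deposited as −log10 values. The deposited fold is a ratio, (pileup + 1) over (local background + 1), from which the background was recovered; its floor was 3.13 ± 0.035 tags (SD, n = 3).

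Chromosomes 1 to 22 and X were kept, peaks were placed by summit in 1 Mb bins, and peaks of the replicates were merged at an overlap of at least 1 bp. A gene-end peak overlaps 1000 bp on either side of either end of a gene in the RefSeq table of GRCh38.p14 (58419 genes, 19821 protein-coding, after 679 rows on other loci were dropped). The table gives no strand or exons; promoters and microRNAs came from RefSeq sequence tables, which hold 72.3% of the protein-coding genes of chromosome 16. No genome sequence was used here. The members, borders and 12 gene lists (185 of 188 entries matched) were chosen with earlier results of these data known. Named were, among those with a peak in all 3 replicates, the 10 regions and 20 gene ends whose fold ranked highest on average, up to 4 such members of each list and a fixed set of 12 genes; sequences were those of the 6 promoters of highest mean rank and 2 of the fixed set without a peak. A gene that this rule takes is not reported here. KIAA0513, CRISPLD2, JPH3, ZNF423, CDH13 and the other genes named for peaks inside them or for lying in an empty run, and the genes named as neighbours or as partial members of a list, were chosen after their values were seen. Comparisons are ratios within a replicate with an exact two-sided sign-flip permutation test. Depth limits what a list can show: a gene without a peak had none that passed the caller's cutoff, the lists hold no counts outside peaks, and limits for counts of 0 cover counting error only. Python 3.11.15, numpy 2.4.6, pandas 2.3.3 and scipy 1.17.1 were used, and the functions were tested on simulated data.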

Additional observations from a re-analysis of the deposited data

How the results depend on the processing

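Of 271 alternative values 207 stayed within the range set for them. Among them were 90 of 90 folds of named genes and regions without a replicate, an outcome fixed in advance. The range there was the SD of the 3 replicates, and the mean of any 2 of them always lies within it. These 90 say nothing about stability, and neither do the labels of the density and fold ratios without a replicate. The density ratio of chromosome 16 to the other chromosomes (2.14) was 2.32 with peaks of −log10 q of at least 5 and 2.38 in bases covered. Peaks of at least 4-fold gave 1.77 and leaving out peaks inside GSE1 and ZNF469 gave 1.89, both chosen after seeing the data; without each replicate it ran between 2.09 and 2.20. The ratio of 16p to 16q (0.767) was 0.689 in bases covered, 0.888 over the whole length and 0.939 without peaks inside GSE1 and ZNF469. It turned round to 1.55 without distal 16q and to 1.12 with peaks of at least 4-fold, again chosen after seeing the data; without each replicate it ran between 0.736 and 0.793. Distal 16q over the rest of 16q (7.74) was 11.4 with −log10 q of at least 5, 11.5 in bases covered and 10.5 over the whole length. With the border at 80 Mb it was 5.66 and at 87 Mb 3.94, with peaks of at least 4-fold 5.12, without peaks inside GSE1 and ZNF469 5.28, and without each replicate between 7.39 and 8.28. The median fold ratio of 0.970 was 0.956 with −log10 q of at least 5. The cause of these changes was not tested.

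The 714 shared regions became 254 with −log10 q of at least 5, 104 with 50% reciprocal overlap and between 1011 and 1242 without each replicate, where only 2 lists have to overlap. The 194 genes with a gene-end peak became 93 with −log10 q of at least 5, 421 with windows of 5000 bp, 119 in all 3 replicates and 320 in any, and between 138 and 152 without each replicate. The 37 promoter windows became 19 with −log10 q of at least 5, 21 in all 3 replicates and between 23 and 32 without each replicate. No paired analysis was possible because the inputs, which share the replicate numbers, have no table of their own here and each list was already called against its own input.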
